A study of Mus musculus with 20 samples.

Results

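The genes of cholesterol and fatty acid synthesis were followed in group 2 innate lymphoid cells (ILC2) of the mouse thymus after treatment with IL-25, IL-33 or both. A list of 37 genes was read by symbol from 2 deposited count tables, and 35 of them were listed in both, against 10696 genes listed for one population and 10580 for the other. Fdft1 and Scd1 were not analysed here. The list holds 7 genes of the mevalonate steps (Acat2, Hmgcs1, Mvk, Pmvk, Mvd, Idi1 and Fdps) and 12 of the sterol steps (Fdft1, Sqle, Lss, Cyp51, Tm7sf2, Lbr, Msmo1, Nsdhl, Hsd17b7, Ebp, Sc5d and Dhcr7). It further holds 5 genes that control the pathway (Srebf1, Srebf2, Scap, Insig1 and Insig2) and 2 of cholesterol transport (Stard4 and Npc1). The fatty acid side holds 4 genes of synthesis (Acly, Acss2, Acaca and Fasn) and 7 of desaturation and elongation (Scd1, Scd2, Elovl1, Elovl5, Elovl6, Fads1 and Fads2).

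ILC2 are lymphocytes without an antigen receptor that answer tissue alarm signals such as IL-25 and IL-33 with type-2 cytokines. The cells came from thymi of young male wild-type (WT) mice and were sorted as high for the IL-25 receptor (IL25R+) or positive for ST2, the IL-33 receptor (ST2+). Every group was kept with IL-7 at 10 ng/mL, had its medium changed after 12 h, was held for 24 h more and was then treated for 24 h. IL25R+ cells received PBS vehicle, recombinant IL-25 at 10 ng/mL, recombinant IL-33 at 10 ng/mL or both at these doses, with 3 libraries per group, and ST2+ cells received vehicle or IL-33 at 10 ng/mL, with 4 libraries per group. The labels do not say whether the libraries of a group came from separate animals, so p-values measure the spread between these libraries, which may be technical.

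Cholesterol is built from acetyl-CoA. The mevalonate steps make farnesyl diphosphate, from which the sterol steps make squalene, lanosterol and cholesterol, while other branches use it to anchor proteins in membranes. Fatty acids are built from the same acetyl-CoA, which comes from citrate through Acly or from acetate through Acss2, and are then elongated by Elovl enzymes and desaturated by Scd and Fads enzymes. Both arms are read by the SREBP transcription factors (Srebf1 and Srebf2), which are held in the endoplasmic reticulum by Insig proteins when sterol is plentiful and are escorted to the Golgi by Scap when it is scarce. Dividing lymphocytes are known to draw on both arms for new membrane.

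The promoters shown are those of 3 genes whose RNA is described below: Hmgcs1, which passed the test after both cytokines, Elovl1, which passed it after IL-25, and Acss2, which passed it after IL-33 in ST2+ cells. A RefSeq promoter table of build GRCm38.p6 (250 bases before to 50 after each listed start) held 29 of the 37 genes. Each line gives the 200 bases before the listed start, on the plus strand, 5′ to 3′, and capitals mark matches of TCACNCCAC (a core of the sterol regulatory element bound by SREBP), CCAAT (the box bound by the nuclear factor Y) or GGGCGG (the box bound by the Sp family), read on both strands. Those of Hmgcs1 are chr13:119690151-119690350, those of Acss2 are chr2:155517843-155518042 and those of Elovl1 are chr4:118427893-118428092.
Hmgcs1: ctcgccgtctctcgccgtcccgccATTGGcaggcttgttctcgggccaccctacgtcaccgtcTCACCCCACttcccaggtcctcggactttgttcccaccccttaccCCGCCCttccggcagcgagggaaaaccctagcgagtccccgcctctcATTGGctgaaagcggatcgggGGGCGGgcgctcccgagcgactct
Acss2: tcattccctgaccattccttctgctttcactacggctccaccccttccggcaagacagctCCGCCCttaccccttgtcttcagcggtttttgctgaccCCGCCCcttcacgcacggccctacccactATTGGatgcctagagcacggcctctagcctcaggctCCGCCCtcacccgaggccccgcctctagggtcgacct
Elovl1: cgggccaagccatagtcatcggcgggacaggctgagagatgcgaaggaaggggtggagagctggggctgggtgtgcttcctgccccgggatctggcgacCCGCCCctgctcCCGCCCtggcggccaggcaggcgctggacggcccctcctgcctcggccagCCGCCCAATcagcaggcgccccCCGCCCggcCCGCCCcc
The Hmgcs1 promoter holds the sterol element with its first base 137 bases before the start, between 2 CCAAT boxes read on the other strand at 176 and 45 bases before the start. In the Elovl1 promoter the CCAAT box overlaps one of the GGGCGG matches. In the 300-base windows, TCACNCCAC was in 1 of the 29 genes with an entry, Hmgcs1, and in 1.44% of 27025 genes of the table. CCAAT was in 24 of 29 (82.8%) against 41.1% of all genes, and in 15 of the 16 mevalonate and sterol genes with an entry. GGGCGG was likewise in 24 of 29, against 38.2% of all genes. These shares are over all genes of the promoter table, and the shares among genes listed in these cells were not examined. A match of letters is a description and not a site, and a window without a match says only that these letters were not in it.

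Library totals over the listed genes ran from 834913 to 1880906 counts in IL25R+ cells and from 537999 to 5453444 in ST2+ cells, where the spread between replicates was larger (biological coefficient of variation 0.328 against 0.128). All 10 ILC2 markers were listed, with summed levels of 3714 to 3772 CPM (counts per 1000000) in IL25R+ vehicle and 3689.6 to 4667 CPM in ST2+ vehicle libraries. The receptor gene Il17rb used for the IL25R+ sort was at 16.2 to 34.7 CPM in IL25R+ and 57.3 to 124 CPM in ST2+ vehicle libraries, and Il1rl1, which encodes ST2, at 6.87 to 11.2 and 171 to 507 CPM. T cell genes (7 of 10 listed in IL25R+ cells) summed to 847 to 882 CPM in vehicle, 654 to 881 in IL-25, 652 to 906 in IL-33 and 566 to 615 in libraries with both. Of those 7, Cd3g was at 277 to 348 and Cd4 at 2.95 to 8.43 CPM in IL25R+ vehicle libraries. B cell and antigen-presenting genes (6 of 8 listed) summed to 241 to 422, 194 to 281, 138 to 222 and 313 to 341 CPM in the same order. The IL25R+ libraries fell into 2 sides on genes such as Glycam1, at 125 CPM or more in all vehicle and all double-treated libraries and in IL-33 library 3, and at 0.731 CPM or less in the IL-25 libraries and IL-33 libraries 1 and 2. The double-treated libraries stand with vehicle, and 2 of 3 IL-33 libraries stand with IL-25. What set the side was not tested. In the comparison of IL-25 alone with vehicle, side and treatment cannot be told apart from these 2 groups. Aire, a gene of thymic epithelium, was at 10823, 30.7 and 0 CPM in the IL25R+ IL-33 libraries and at no more than 33.2 CPM in the other IL25R+ groups. In ST2+ cells, vehicle library 3 and IL-33 library 2 stood apart from the rest. IL-33 library 2 had the lowest value of its group for 22 of the 35 listed genes.

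Levels below are CPM, the count of a gene over the library total times 1000000. Changes are log2 fold changes ± standard error (SE) from edgeR's quasi-likelihood test on the counts, with p-values adjusted by Benjamini-Hochberg over all genes tested and called at 0.05. The test also scales libraries by TMM, with factors of 0.919 to 0.946 in IL-25, 0.955 to 0.989 in both and 1.03 to 1.08 in vehicle libraries. Fold changes of IL-25 or both over vehicle are therefore larger than the ratio of the printed CPM: scaled by library totals alone, the median log2 fold change of all genes moved from -0.03 to -0.21 for IL-25 and from -0.03 to -0.14 for both. In bulk RNA, fewer cells of a type and less RNA per cell cannot be told apart. After the filter on low counts 32 of the genes were tested in IL25R+ cells (not Idi1, Insig1 and Fasn) and 29 in ST2+ cells (not Idi1, Lss, Hsd17b7, Insig2, Fasn and Elovl6). Over 7 comparisons there were 31 calls, made on 18 genes.

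**Figure D1:**
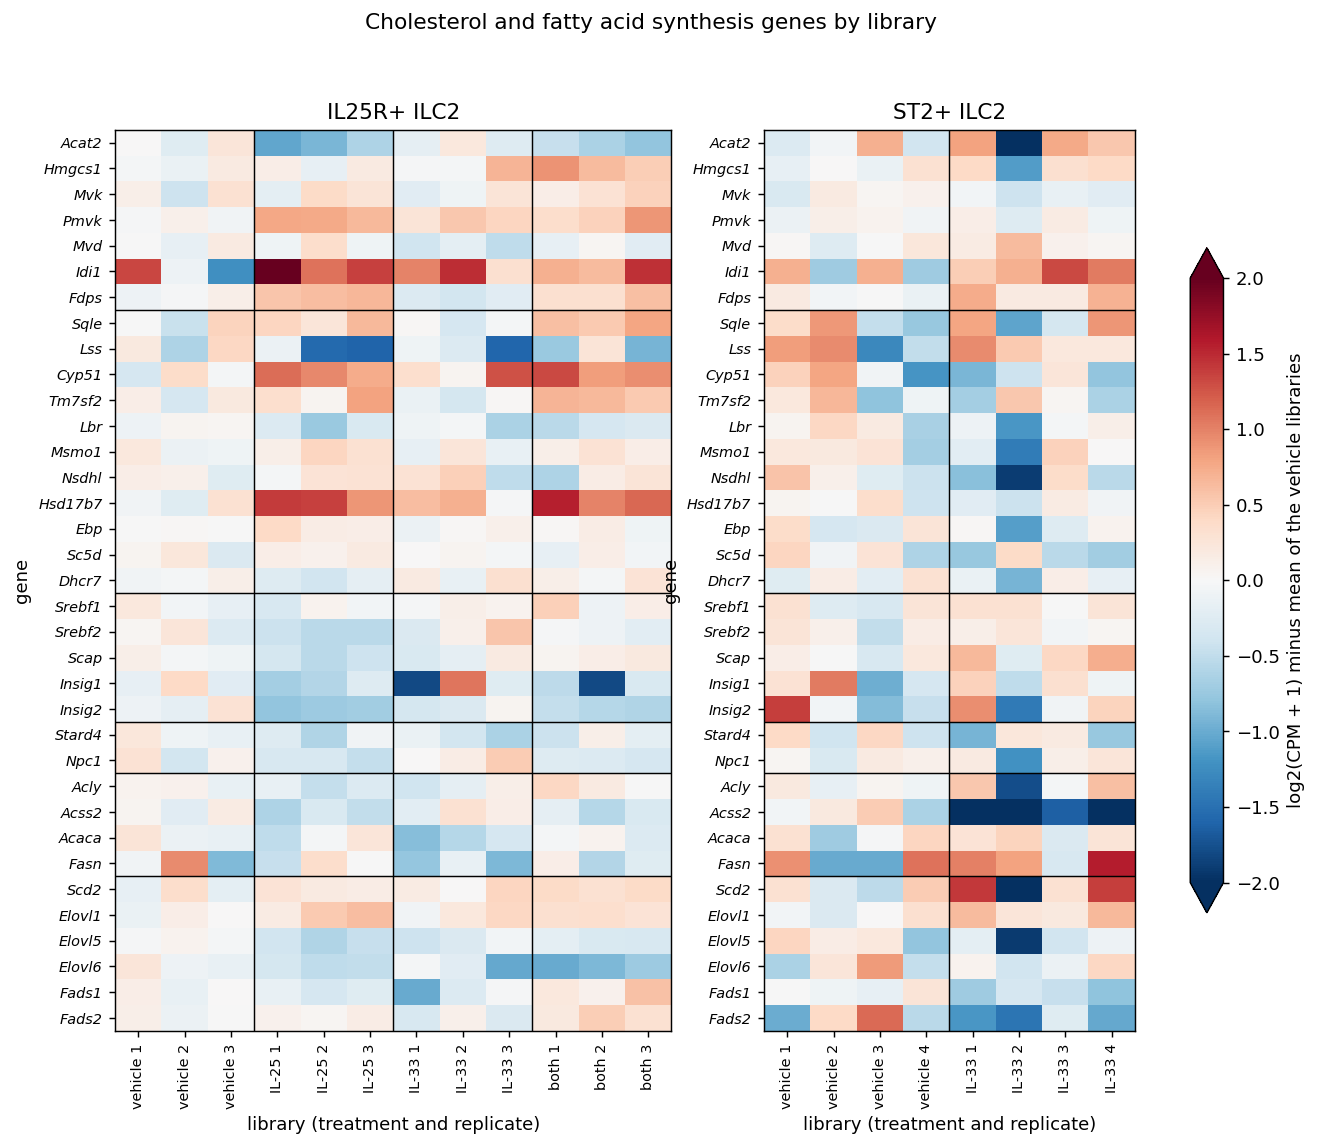
Each cell shows log2(CPM + 1) of 1 gene in 1 library minus the mean of the vehicle libraries of the same population, for the 35 listed genes grouped by role. The IL-25 and both columns are raised for Fdps, Pmvk, Cyp51 and Hsd17b7 and lowered for Acat2, and the ST2+ IL-33 columns are lowered for Acss2.

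IL-25 was followed by more RNA of single enzymes along the cholesterol pathway in IL25R+ cells and by less of its first thiolase. Of the 32 genes tested, 7 rose and 1 fell, while 9.07% of all 8850 genes tested were called higher and 5.9% lower. The 7 were Pmvk, Fdps, Cyp51, Msmo1, Hsd17b7, Ebp and Elovl1, of which 6 belong to the mevalonate and sterol steps. The gene that fell was Acat2. The median log2 fold change of the 32 was 0.15, against -0.03 over all genes tested. It was 0.36 over the 17 mevalonate and sterol genes tested and -0.08 over the 9 fatty acid genes. Scaled by library totals alone the split was 5 higher and 5 lower (all genes 452 higher and 1267 lower, against 803 and 522 with TMM), so the direction of the list as a whole depends on the scaling. Without vehicle library 1 or IL-25 library 1, 4 genes were called higher.

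Fdps, the synthase of farnesyl diphosphate, was at 204, 216 and 239 CPM in the vehicle libraries and at 322, 336 and 346 CPM after IL-25. All IL-25 libraries lay above all vehicle libraries, with means of 219 ± 17.7 and 335 ± 11.9 CPM (SD, n = 3). The log2 fold change was 0.79 ± 0.13 (95% interval 0.53 to 1.05), with an adjusted p of 0.000172 by edgeR. Fdps lies on the minus strand of chromosome 3 (chr3:89093588-89101959, GRCm38). Pmvk, which adds the second phosphate to mevalonate, stands on the same chromosome (chr3:89454541-89469013). Its levels were 27.4, 29.9 and 26.5 CPM in vehicle and 48.7, 48 and 44.5 CPM in IL-25 libraries, again without overlap. Pmvk rose by 0.94 ± 0.20 on the log2 scale (adjusted p = 0.0022), or 1.91-fold.

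Acat2, the cytosolic thiolase that joins acetyl-CoA units at the entry of the pathway, went the other way. It was at 155, 129 and 183 CPM in vehicle and 74.8, 81.4 and 100.5 CPM in IL-25 libraries, and every IL-25 library was below every vehicle library. The log2 fold change was -0.69 ± 0.15 (95% interval -1.01 to -0.37), with an adjusted p of 0.00399. Acat2 is on chromosome 17 (chr17:12942890-12960747), and its near-identical neighbour Acat3 was not analysed here, so reads shared between them cannot be assigned. Hmgcs1, the synthase that makes HMG-CoA, was at 93.5, 87.4 and 109 CPM in vehicle and 106, 85.4 and 109 CPM in IL-25 libraries. These groups overlapped, and its log2 fold change of 0.23 ± 0.18 did not pass (95% interval -0.14 to 0.60, adjusted p = 0.414). Mvk and Mvd, the kinase before Pmvk and the decarboxylase after it, had log2 fold changes of 0.29 and 0.24 and were not called.

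Among the sterol steps Cyp51, Hsd17b7, Msmo1 and Ebp were called. The first 3 act in the removal of methyl groups from lanosterol, and Nsdhl, the dehydrogenase of the same steps, was not called (log2 fold change 0.36). Cyp51, the lanosterol demethylase, was at 7.03, 12 and 8.84 CPM in vehicle and 20.8, 18.7 and 15.9 CPM in IL-25 libraries, from counts of 10, 10 and 9 and 35, 28 and 25. The groups did not overlap, and Cyp51 rose by 1.22 ± 0.34 (adjusted p = 0.0179). Hsd17b7, a ketoreductase in the removal of methyl groups, was at 2.81, 2.4 and 3.93 CPM and 9.49, 9.34 and 6.36 CPM. It rose by 1.61 ± 0.46 (adjusted p = 0.0196) on counts of 4, 2 and 4 in vehicle and 16, 14 and 10 in IL-25 libraries, so its size is imprecise (95% interval 0.66 to 2.56). Msmo1, the methylsterol oxidase, was at 87.1, 69.5 and 70.7 CPM in vehicle and 81.9, 102 and 93.5 CPM in IL-25 libraries. One IL-25 library lay below the highest vehicle library, and the change was 0.45 ± 0.14 (adjusted p = 0.0375). Ebp, the sterol isomerase, moved from 159.5, 163 and 159 CPM to 212, 177 and 176 CPM without overlap, a change of 0.41 ± 0.12 (adjusted p = 0.0248). Msmo1 and Ebp were not called when scaled by library totals alone.

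Sqle, the squalene epoxidase, was at 40.8, 29.9 and 56 CPM in vehicle and 55.2, 48.7 and 64.9 CPM in IL-25 libraries. These values overlapped and the change of 0.58 ± 0.20 was just outside the threshold (adjusted p = 0.0516). The other sterol genes tested, Lss, Tm7sf2, Lbr, Nsdhl, Sc5d and Dhcr7, were not called, with log2 fold changes from -0.97 for Lss to 0.59 for Tm7sf2. Lss, the lanosterol synthase, rested on counts of 13, 4 and 11 in vehicle and 12, 3 and 3 in IL-25 libraries. Cyp51 and Akap9 lie on opposite strands and overlap at their ends, and the labels do not say whether counting used the strand. Akap9 was at 38.3 to 46.4 CPM in vehicle and 22 to 26.7 CPM in IL-25 libraries, the opposite order to Cyp51.

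**Figure D2:**
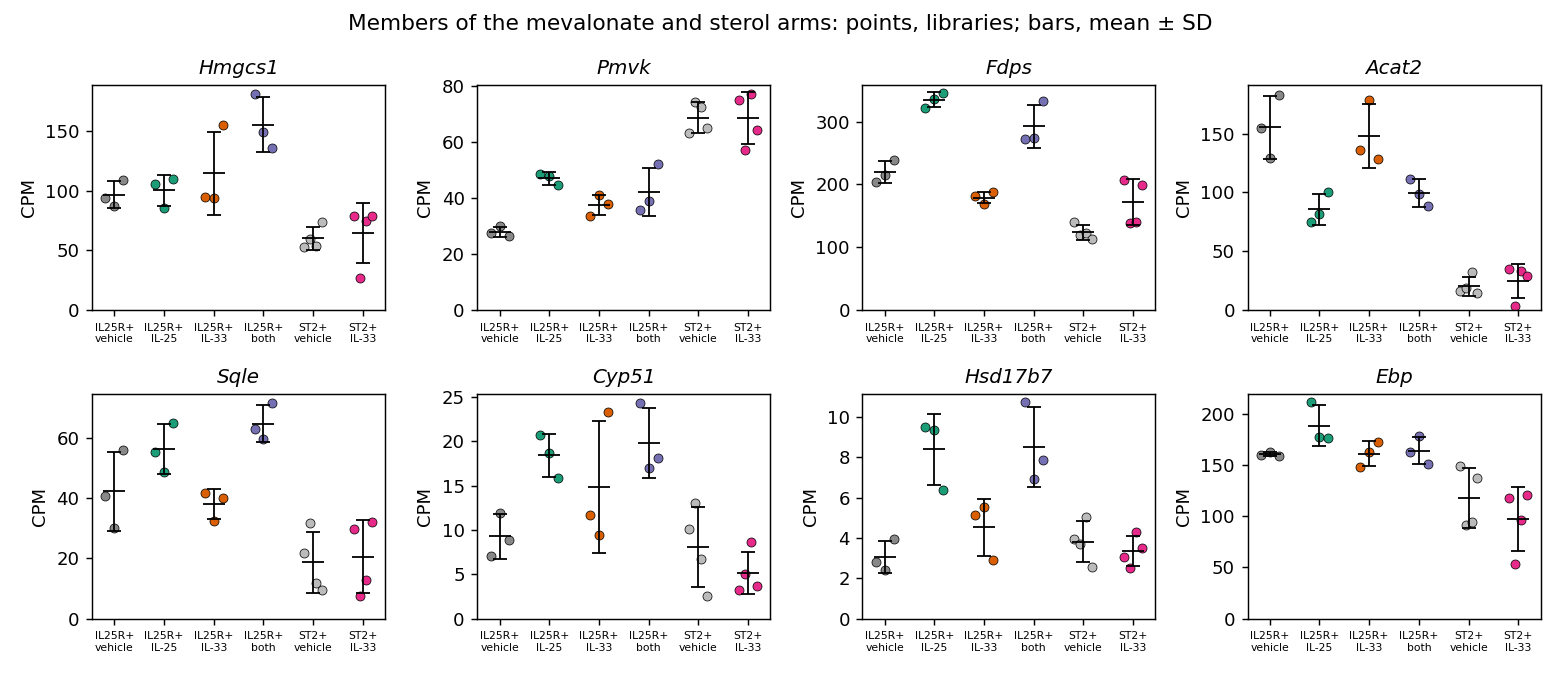
CPM of 8 mevalonate and sterol genes by library (points), with the group mean and SD (bars), in the 4 IL25R+ and 2 ST2+ groups. Fdps is at 204 to 239 CPM in vehicle and 322 to 346 CPM in IL-25 libraries, and Acat2 has the opposite order, at 129 to 183 and 74.8 to 100.5 CPM.

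On the fatty acid side, Elovl1, the elongase of very long saturated chains, was the one gene of 9 tested that was called after IL-25. It was at 122, 146 and 135 CPM in vehicle and 150.1, 192 and 205 CPM in IL-25 libraries, without overlap. The change was 0.63 ± 0.14 (adjusted p = 0.00404), or 1.55-fold. Elovl1 (chr4:118428093-118432953, plus strand) overlaps the mitotic gene Cdc20 on the other strand, which was at 6.32, 13.2 and 7.86 CPM in vehicle and 17.8, 16 and 10.8 CPM in IL-25 libraries. Acly, Acss2, Acaca, Scd2, Elovl5, Elovl6, Fads1 and Fads2 were not called, with log2 fold changes from -0.32 for Acss2 to 0.37 for Scd2. Elovl5, the elongase of polyunsaturated chains, was at 207, 220.4 and 204 CPM in vehicle and 161, 138 and 153 CPM in IL-25 libraries, with no overlap and a change of -0.30 ± 0.12 (adjusted p = 0.105).

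None of the 4 control genes tested was called after IL-25. Srebf2, which encodes the SREBP most tied to cholesterol genes, was at 122, 140.1 and 97.2 CPM in vehicle and 87.8, 80.7 and 81.4 CPM in IL-25 libraries. Scap, the escort of SREBP, was at 145, 131 and 127 and 105, 92.1 and 100.5 CPM, and Insig2, one of the proteins that retain it, at 25.3, 24 and 33.4 and 15.4, 16 and 16.5 CPM. For Srebf2, Scap and Insig2 every IL-25 library was below every vehicle library, with log2 fold changes of -0.34, -0.26 and -0.60 (adjusted p = 0.193, 0.211 and 0.0823). Scaled by library totals alone these 3 and Elovl5 were called lower, with log2 fold changes of -0.52, -0.44, -0.78 and -0.48 in the order Srebf2, Scap, Insig2 and Elovl5 (adjusted p = 0.0399, 0.0294, 0.0216 and 0.0103). Srebf1, the SREBP gene most tied to fatty acid synthesis, was at 107, 88.6 and 81.5 CPM in vehicle and 73.6, 96.7 and 88.4 CPM in IL-25 libraries, which overlapped (adjusted p = 0.819). Srebf1 overlaps Rai1 on the other strand, at 119 to 155 CPM in vehicle and 76.7 to 81.4 CPM in IL-25 libraries. Insig1 was under the filter at 2.11, 3.59 and 1.96 CPM in vehicle and 1.19, 1.33 and 1.91 CPM in IL-25 libraries.

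With the side of the Glycam1 split as a term, which rests on the IL-33 libraries to separate side from treatment, Acat2 (log2 fold change -0.99, adjusted p = 0.0183), Fdps (0.87, 0.0168), Cyp51 (2.34, 0.00698) and Elovl1 (0.95, 0.0107) kept their calls after IL-25. Pmvk and Ebp lost theirs with changes no smaller than before and larger errors (0.95 ± 0.36 and 0.55 ± 0.21, adjusted p = 0.117 and 0.121). Msmo1 and Hsd17b7 lost theirs with smaller changes (0.24 ± 0.27 and 0.76 ± 1.05, adjusted p = 0.649 and 0.733). Hmgcs1 was called higher in that fit (0.93, 0.0216), and Elovl6 and Lbr lower (-1.25, 0.0322 and -0.83, 0.0366). Genes of DNA synthesis and mitosis moved with the treatment: 15 of 16 S phase and 12 of 12 G2 and M phase genes tested rose after IL-25. The summed S phase level was 638 to 711 CPM in vehicle and 1294 to 1409.8 CPM in IL-25 libraries, and the part of this in the cholesterol genes was not tested. Of the 5 B cell and antigen-presenting genes tested, 4 fell and 1 rose after IL-25 (median log2 fold change -2.70). H2-Eb1, H2-Aa, Cd74 and H2-Ab1 fell, with log2 fold changes of -5.11, -4.66, -2.70 and -2.08, and Cd79b rose by 0.58. Their part in the lipid genes was not tested.

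**Figure D3:**
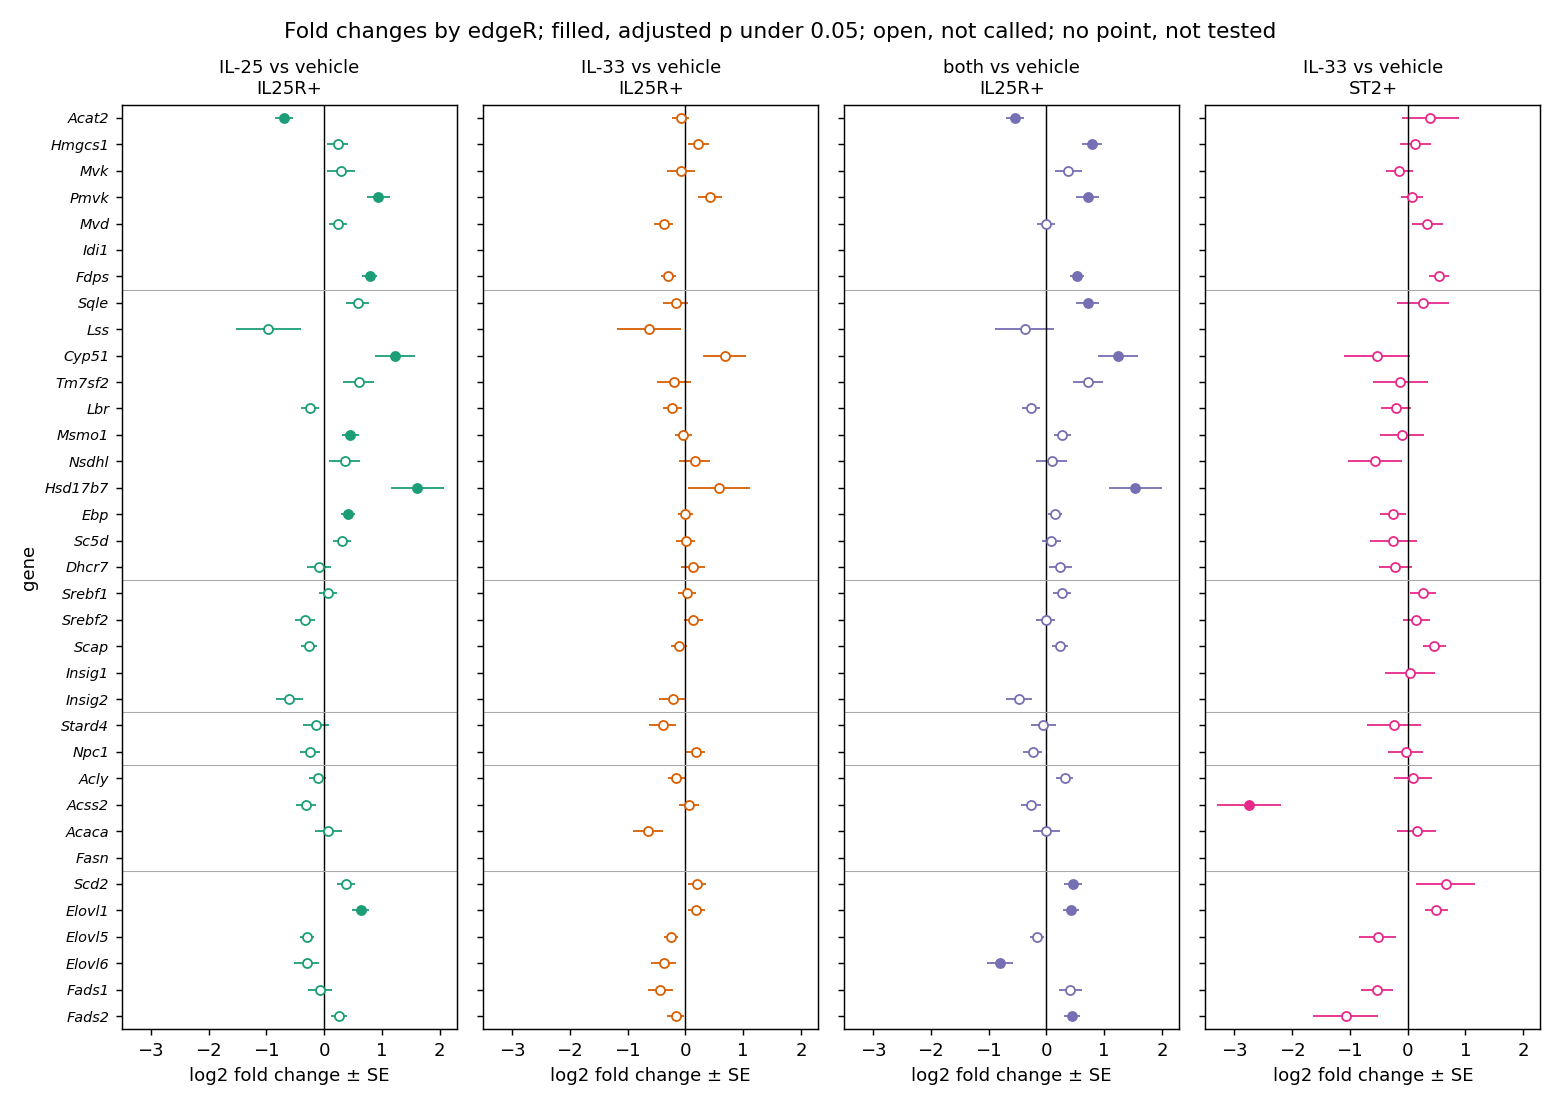
Log2 fold changes ± SE (edgeR) of the genes tested, in rows by role, for IL-25, IL-33 and both over vehicle in IL25R+ cells and IL-33 over vehicle in ST2+ cells, with filled points for genes called at an adjusted p of 0.05. There are 7 higher and 1 lower filled points for IL-25, 0 for IL-33 in IL25R+ cells, 9 and 2 for both, and 0 and 1 in ST2+ cells.

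IL-33 alone left the list without a call in IL25R+ cells. By edgeR 0 of 32 genes were called in either direction, in a comparison where 0.181% of all genes tested were called higher and 0.0565% lower, and DESeq2 called 0 of the 28 for which it gave an adjusted p. At an unadjusted p of 0.05, a threshold for which the share of all genes is not given here, 3 of the 32 passed, all lower. These were Acaca, the carboxylase that commits acetyl-CoA to fatty acids, Mvd and Fdps, with log2 fold changes of -0.65 ± 0.26, -0.37 ± 0.16 and -0.30 ± 0.13. Their adjusted p-values were 0.308, 0.359 and 0.369. Fdps was at 181, 169 and 187 CPM after IL-33, all below the lowest vehicle library, whereas after IL-25 it lay above all of them. Pmvk was at 33.6, 41 and 38 CPM, all above vehicle, with a change of 0.43 ± 0.21 (adjusted p = 0.42). The control genes Srebf1, Srebf2, Scap and Insig2 were at 89.9 to 99.3, 96.5 to 174, 108 to 152 and 21.2 to 28.2 CPM, each overlapping vehicle.

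The IL-33 group was uneven. Hmgcs1 was at 95, 93.8 and 155 CPM and Elovl6 at 51.2, 44.9 and 25.3 CPM, with library 3 apart from the other two in both. Cyp51 was at 11.7, 9.46 and 23.4 CPM with the same pattern. Library 3 is the one that shares its side of the split with the vehicle libraries. With IL-33 libraries 1 and 2 left out, library 3 alone remains in the group, so effect sizes only are given. The log2 fold changes over vehicle were then 0.69 for Hmgcs1, -1.07 for Elovl6 and 1.39 for Cyp51, genes named here because library 3 stood apart in them.

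With both cytokines, 9 of the 32 genes rose and 2 fell, against 8.97% called higher and 6.67% called lower among all genes tested. Scaled by library totals alone these were 6 and 2, with all genes at 580 higher and 962 lower against 794 and 590 with TMM, and DESeq2 also gave 6 and 2. The genes that rose were Hmgcs1, Pmvk, Fdps, Sqle, Cyp51, Hsd17b7, Scd2, Elovl1 and Fads2, and those that fell were Acat2 and Elovl6. This comparison shares its vehicle libraries with those of IL-25 and IL-33, and it keeps vehicle and treated libraries on the same side of the Glycam1 split. With the side of the split as a term the counts were again 9 and 2. Since both groups stand on the same side, that term cannot shift these fold changes, so this says nothing about the split. Without vehicle library 1, 1 gene was called higher, and without vehicle library 3, 4 were. Without library 1 or library 3 of the group with both, 5 and 2 were called higher, and without library 2 of that group 0 were called lower. The median over the 32 was 0.24, against -0.03 over all genes. Of the S phase genes 14 of 16 rose here, with sums of 1423 to 1542 CPM, and their part was not tested.

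Hmgcs1 was at 93.5, 87.4 and 109 CPM in vehicle and 181, 149 and 136 CPM in libraries with both, which did not overlap. It rose by 0.79 ± 0.17 (95% interval 0.43 to 1.15, adjusted p = 0.00327), or 1.73-fold. This is the gene whose promoter, printed above, holds the sterol element, and it lies on the plus strand of chromosome 13 (chr13:119690379-119708260). Fdps was at 272, 273 and 332 CPM with both, above all vehicle libraries, and rose by 0.53 ± 0.13 (adjusted p = 0.00627). Pmvk, at 35.7, 38.8 and 52 CPM with both, rose by 0.72 ± 0.20 (adjusted p = 0.0158). Acat2, at 112, 98.9 and 88.3 CPM, fell below all vehicle libraries again, with a log2 fold change of -0.54 ± 0.15 (adjusted p = 0.018).

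Of the sterol genes, Sqle rose to 62.9, 59.5 and 71.4 CPM with both, above the vehicle values of 29.9 to 56 CPM. The change was 0.71 ± 0.20 (adjusted p = 0.0158). Cyp51 was at 24.3, 17 and 18.2 CPM and Hsd17b7 at 10.7, 6.91 and 7.87 CPM, each above all vehicle libraries. Their changes were 1.24 ± 0.34 and 1.54 ± 0.46 (adjusted p = 0.015 and 0.0243). Tm7sf2, a sterol reductase, was at 16.9, 12 and 17.7 CPM in vehicle and 25, 24.5 and 22.4 CPM with both, without overlap, but did not pass (adjusted p = 0.0668). Ebp and Msmo1 were at 163, 178 and 151 and 81.5, 92.5 and 82.3 CPM, with changes of 0.14 ± 0.12 and 0.27 ± 0.14 that did not pass (adjusted p = 0.47 and 0.214).

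Of the 9 fatty acid genes tested, 3 rose and 1 fell with both. Fads2, the first desaturase of polyunsaturated chains, was at 93.5, 79.1 and 85.4 CPM in vehicle and 98, 121 and 106 CPM with both, without overlap (change 0.44 ± 0.14, adjusted p = 0.0328). Scd2, the desaturase that makes monounsaturated chains, was at 118, 169 and 116 and 173, 163 and 172 CPM. Its second vehicle library lay within the range with both, and the change was 0.46 ± 0.15 (adjusted p = 0.0409). Elovl1 was at 168, 169 and 162 CPM with both, above all vehicle libraries (change 0.42 ± 0.14, adjusted p = 0.0443). Cdc20, on the other strand, was at 8.58, 6.91 and 21.8 CPM. Elovl6, which lengthens palmitate to stearate, fell from 62.5, 49.1 and 47.1 CPM to 25.7, 27.6 and 31.5 CPM, without overlap. The log2 fold change was -0.80 ± 0.22 (adjusted p = 0.0145). The calls of Scd2, Elovl1 and Fads2 passed in 8, 9 and 11 of 18 alternative fits.

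**Figure D4:**
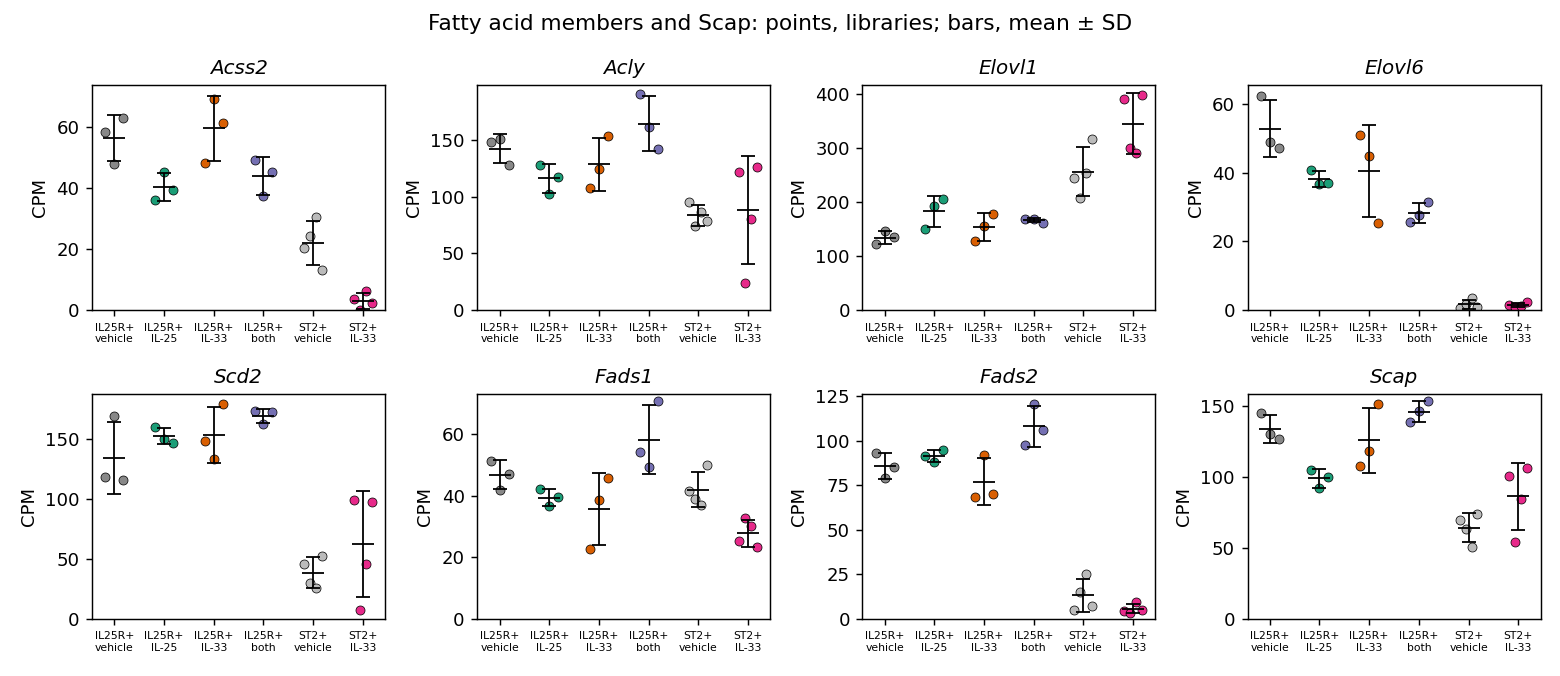
CPM of 7 fatty acid genes and Scap by library (points), with the group mean and SD (bars), in the 4 IL25R+ and 2 ST2+ groups. Acss2 is at 13.2 to 30.3 CPM in ST2+ vehicle and at 0 to 6.14 CPM in ST2+ IL-33 libraries, and Elovl6 is near 0 in both ST2+ groups.

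The libraries with both were also set against each cytokine alone. Added to IL-25, IL-33 was followed by 1 call, Scap, with 1.36% of all genes tested called higher and 1.79% lower. Scap was at 105, 92.1 and 100.5 CPM with IL-25 and 139, 147 and 154 CPM with both, without overlap, and rose by 0.49 ± 0.13 (adjusted p = 0.0394). With both, Scap was near its vehicle values of 145, 131 and 127 CPM. The groups stand on different sides of the split, and with its side as a term the change of Scap was 0.08 (adjusted p = 0.929). Hmgcs1, at 106, 85.4 and 109 CPM with IL-25 and 181, 149 and 136 CPM with both, was apart but did not pass (change 0.56 ± 0.17, adjusted p = 0.0651). Acly, the citrate lyase, was at 128, 102 and 118 and 190.2, 161 and 142 CPM, also apart (change 0.43 ± 0.14, adjusted p = 0.099). Leaving out IL-33 library 1, 2 or 3, which enter this fit through the shared spread, gave 2, 2 and 3 genes higher, and leaving out any of the other 9 libraries gave 0.

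Added to IL-33, IL-25 was followed by 7 genes called higher and 1 lower, with 9.29% and 7.88% of all genes tested called. Scaled by library totals alone these were 5 and 2, with Npc1 lower and without Hmgcs1 and Acly. Fdps, at 169 to 187 CPM with IL-33 and 272 to 332 CPM with both, rose by 0.82 ± 0.13 (adjusted p = 0.000115). Sqle was at 41.7, 32.3 and 39.9 CPM with IL-33, below all libraries with both, and rose by 0.88 ± 0.20 (adjusted p = 0.00348). Tm7sf2, at 13.9, 11.8 and 15.6 CPM with IL-33, rose by 0.91 ± 0.26 (adjusted p = 0.018). Both polyunsaturated desaturases were called. Fads1 was at 22.7, 38.6 and 45.8 CPM with IL-33 and 54.3, 49.4 and 70.8 CPM with both (change 0.85 ± 0.20, adjusted p = 0.0064), and Fads2 at 68.7, 92.2 and 70.1 and 98, 121 and 106 CPM (change 0.61 ± 0.14, adjusted p = 0.00393). Neither overlapped between the groups. Hmgcs1 and Acly, at 95, 93.8 and 155 and 107, 124 and 154 CPM with IL-33, overlapped the libraries with both through IL-33 library 3. Their changes were 0.56 ± 0.17 and 0.47 ± 0.14 (adjusted p = 0.0237 and 0.0259). Acat2 was the gene that fell, from 136, 179 and 129 CPM to 112, 98.9 and 88.3 CPM (change -0.46 ± 0.15, adjusted p = 0.0394). With IL-33 libraries 1 and 2 left out, library 3 alone stands for IL-33, so effect sizes only are given and no calls. Fdps and Fads2 then had log2 fold changes of 0.76 and 0.75, and Sqle and Tm7sf2 of 0.81 and 0.73. The changes of Fads1, Acly, Hmgcs1 and Acat2 were smaller than in the main fit, at 0.46, 0.20, 0.11 and -0.26. Those of Npc1 and Srebf2 were -0.70 and -0.56. Without IL-33 library 2, or library 2 of the group with both, 4 genes were called higher. Acat2 lost its call without vehicle library 1, IL-33 library 2, or library 2 or 3 of the group with both, and without IL-33 library 3 there were 2 genes lower.

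In ST2+ cells IL-33 was followed by a fall of Acss2 and by no other call in the 29 genes tested, while 8.52% of all 7626 genes tested were called higher and 8.03% lower. Acss2, which makes acetyl-CoA from acetate, was at 20.2, 24.2, 30.3 and 13.2 CPM in vehicle and 3.72, 0, 6.14 and 2.2 CPM in IL-33 libraries, from counts of 36, 13, 18 and 36 and 17, 0, 10 and 12. The value of 0 in IL-33 library 2 allows a level of up to 2.53 CPM (3 counts of that library's total, counting error only). All IL-33 libraries lay below all vehicle libraries, and the means were 22 ± 7.21 and 3.01 ± 2.58 CPM (SD, n = 4). The log2 fold change was -2.74 ± 0.55 (95% interval -3.96 to -1.52), with an adjusted p of 0.00824 by edgeR, or 6.67-fold lower. In the 14 alternative fits it was called in all, with log2 fold changes from -3.13 to -2.30. Acss2 lies on the plus strand of chromosome 2 (chr2:155517948-155585724). Its promoter, printed above, holds 3 GGGCGG matches and 1 CCAAT box. That window ends at the RefSeq start and runs past the GENCODE start of the gene, so part of it lies inside the gene as annotated there.

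The other genes that make or spend cytosolic acetyl-CoA were not called. Acly was at 94.8, 74.3, 86 and 78.6 CPM in vehicle and 121, 23.6, 80.5 and 126 CPM in IL-33 libraries, with the 2 highest values and the lowest value in the IL-33 group (change 0.09 ± 0.33, adjusted p = 0.884). Acaca was at 23.6, 11.2, 18.5 and 25.9 and 23, 26.1, 15.4 and 22.9 CPM, which overlapped (change 0.16 ± 0.34, adjusted p = 0.785). Fasn, the fatty acid synthase, was under the filter at 2.8, 0, 0 and 3.29 CPM in vehicle and 3.06, 2.53, 0.614 and 4.95 CPM in IL-33 libraries, and at no more than 9.58 CPM in any IL25R+ library.

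Fdps was just outside the threshold in ST2+ cells. Its levels were 139.7, 119, 123 and 113 CPM in vehicle and 207, 139, 140.0 and 199.5 CPM in IL-33 libraries. The lowest IL-33 value lay within the vehicle range, and the change was 0.54 ± 0.17 (95% interval 0.16 to 0.91, adjusted p = 0.0533). Scap was at 69.6, 63.2, 50.6 and 73.8 and 101, 53.9, 84.8 and 107 CPM, and Elovl1 at 245, 208, 255 and 318 and 392, 301, 292 and 399 CPM. Both overlapped, with changes of 0.46 ± 0.20 and 0.49 ± 0.20 (adjusted p = 0.132 and 0.114). Cdc20, on the other strand from Elovl1, was at 48.3 to 126 CPM in vehicle and 87.6 to 179 CPM in IL-33 libraries. Fads1 was at 41.5, 39, 37.1 and 50.1 CPM in vehicle and 25.1, 32.8, 30.1 and 23.3 CPM in IL-33 libraries, lower in all 4, but did not pass (change -0.52 ± 0.28, adjusted p = 0.223). Srebf1 and Srebf2 overlapped between the groups, at 121, 81.8, 77.5 and 117 and 83.6, 74.3, 48.9 and 76.7 CPM in vehicle and 121, 120.4, 96.4 and 117 and 75.4, 82.5, 66.9 and 71.3 CPM after IL-33. Insig1, which passed the filter here, was at 9.54, 16.7, 3.37 and 5.85 and 10.9, 5.05, 9.83 and 7.15 CPM (adjusted p = 0.96), and Insig2, which did not, at 11.8, 3.72, 1.69 and 2.56 and 8.31, 0.842, 3.69 and 5.68 CPM.

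Library 2 of the ST2+ IL-33 group stood out in these values. It held Acat2 at 3.37 CPM against 14.6 to 32 CPM in vehicle, Scd2 at 7.58 CPM against 25.3 to 52.6 CPM, and Acly at 23.6 CPM against 74.3 to 94.8 CPM. In the other 3 IL-33 libraries Acat2 was at 34.6, 33.2 and 28.6 CPM and Scd2 at 99.3, 45.4 and 97.6 CPM. With this library and vehicle library 3 left out, 16.9% of all 8171 genes tested were called higher and 14% lower. Of the 30 genes of the list tested in that fit, 4 were called higher and 2 lower. Those higher were Acat2 (log2 fold change 1.03, adjusted p = 0.0115), Fdps (0.57, 0.0259), Scap (0.49, 0.0319) and Scd2 (0.86, 0.0458). Those lower were Acss2 (-2.30, 0.00714) and Fads1 (-0.76, 0.0325). Leaving out IL-33 library 2 alone gave 3 higher and 2 lower, and leaving out IL-33 library 3 gave 1 higher. Of the S phase genes 7 of 17 rose and 0 fell, and of the G2 and M phase genes 1 of 13 rose and 0 fell. The S phase sums overlapped, at 1541 to 2581 CPM in vehicle and 2296 to 3580.4 CPM in IL-33 libraries. The summed ILC2 markers were at 1696 to 3588 CPM after IL-33, with 1 of 10 called higher and 4 lower. T cell genes summed to 90.3 to 169 CPM in vehicle and 31.1 to 63.9 CPM in IL-33 libraries, and B cell and antigen-presenting genes to 82.6 to 201 and 228 to 355 CPM, of which Cd74 made up 16.7 to 93.1 and 146 to 272 CPM. The part of these in the lipid genes was not tested.

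The effect of IL-33 was then compared between the populations, as ST2+ minus IL25R+, in a fit of all 20 libraries. This fit shares its estimate of the spread over ST2+ and IL25R+ cells, whose biological coefficients of variation were 0.328 and 0.128. The error of the ST2+ part may therefore be understated. Of the 33 genes tested 1 was higher and 1 lower, while 4.66% of 8964 genes were called higher and 6.85% lower. Acss2 differed by -2.69 ± 0.47 on the log2 scale (95% interval -3.67 to -1.71, adjusted p = 0.000971). In IL25R+ cells it was at 58.3, 47.9 and 62.8 CPM in vehicle and 48.2, 69.3 and 61.3 CPM in IL-33 libraries, which overlapped (change 0.06 ± 0.17, adjusted p = 0.925). Fdps differed by 0.89 ± 0.21 (95% interval 0.46 to 1.32, adjusted p = 0.00812): its IL-33 libraries lay lower than vehicle in IL25R+ cells and mostly higher in ST2+ cells. Scap and Mvd had differences of 0.61 ± 0.24 and 0.72 ± 0.31 that did not pass (adjusted p = 0.0984 and 0.137). The difference for Fdps was close in size but not called with the side of the split as a term (0.84 ± 0.27, adjusted p = 0.0768). With IL25R+ IL-33 libraries 1 and 2 left out, library 3 alone remains in that group and the difference for Fdps was 0.85. Without IL25R+ IL-33 library 3 or ST2+ vehicle library 4, 2 genes were called higher, and without ST2+ IL-33 library 2, 3 were. The difference for Acss2 was called in all 28 alternative fits.

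The vehicle levels of the populations, from tables scaled separately and so set side by side without a test, were far apart for some genes. Elovl6 was at 47.1 to 62.5 CPM in IL25R+ and 0.561 to 3.37 CPM in ST2+ vehicle libraries, and Fads2 at 79.1 to 93.5 and 5.05 to 25.3 CPM. Acat2 was at 129 to 183 and 14.6 to 32 CPM. Elovl1 and Pmvk had the other order, at 122 to 146 and 208 to 318 CPM, and at 26.5 to 29.9 and 63.4 to 74.3 CPM. Cdc20, which overlaps Elovl1 on the other strand, was at 6.32 to 13.2 and 48.3 to 126 CPM. Its part in the Elovl1 counts was not tested. Srebf1 was at 81.5 to 107 and 77.5 to 121 CPM, within overlapping ranges.

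Summed over roles in CPM, which were not scaled by TMM, each treated IL25R+ group overlapped vehicle in the mevalonate and sterol steps. With TMM factors, the IL-25 and double-treated sums would stand higher against vehicle than printed, and overlap was not examined on that scale. The mevalonate genes summed to 552 to 678 CPM in vehicle, 657 to 710.5 in IL-25, 531 to 596 in IL-33 and 675 to 716 in libraries with both. The sterol genes summed to 637 to 647, 615 to 693, 573 to 647 and 618 to 676 CPM in the same order. For Acly, Acss2, Acaca and Fasn together the sums were 217 to 244, 180.1 to 194, 173 to 239 and 213 to 271 CPM. In CPM, without TMM, the IL-25 libraries lay below all vehicle libraries. Of the 3 of these genes tested, 0 were called after IL-25 (median log2 fold change -0.11). Desaturation and elongation genes were at 634 to 705, 642 to 677, 577 to 702 and 699 to 711 CPM. In ST2+ cells the mevalonate sum was 369.9 to 389 CPM in vehicle and 363 to 509.7 CPM in IL-33 libraries, and the sterol sum 288 to 397 and 199 to 323 CPM. Each ST2+ sum overlapped between its groups.

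**Figure D5:**
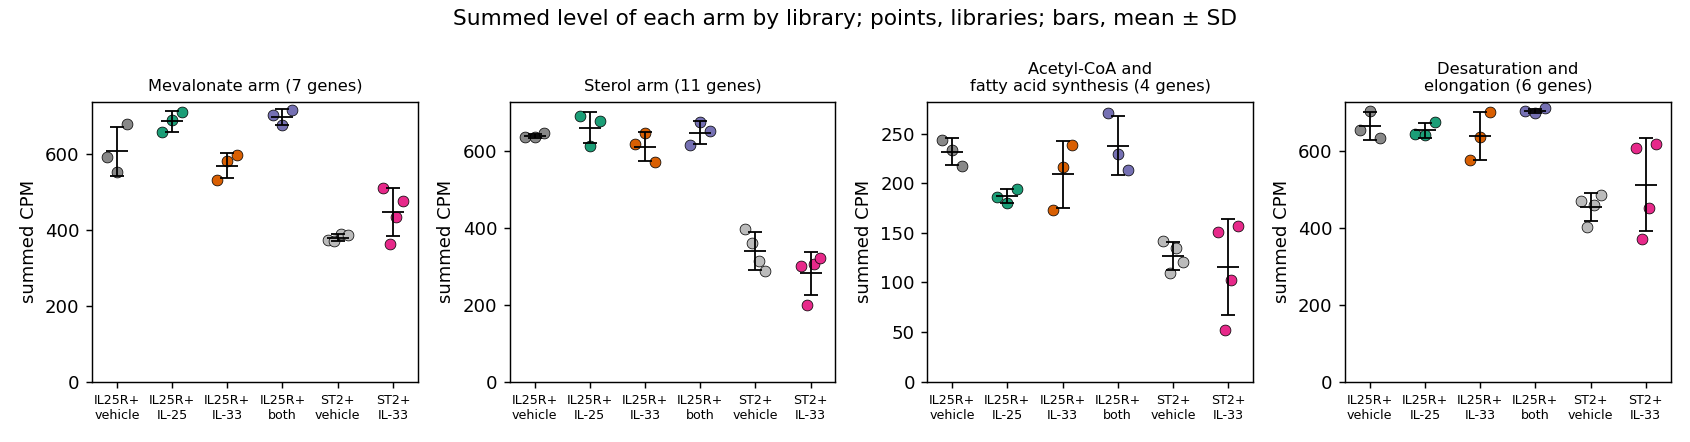
Summed CPM of the mevalonate (7 genes), sterol (11), fatty acid synthesis (4) and desaturation and elongation (6) genes by library (points), with the group mean and SD (bars). In IL25R+ cells the fatty acid synthesis sum is 217 to 244 CPM in vehicle and 180.1 to 194 CPM in IL-25 libraries, while the sterol sums of the 4 groups overlap. The CPM were not scaled by TMM.

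The remaining genes were called in no comparison. They were 17 of the 35, and beside Srebf1, Srebf2, Insig1 and Insig2 they comprised Mvk, Mvd, Idi1, Lss, Lbr, Nsdhl, Sc5d, Dhcr7, Stard4, Npc1, Acaca, Fasn and Elovl5. Idi1, the isomerase between Mvd and Fdps, stayed under the filter at no more than 9.49 CPM in any library. Lbr, a sterol reductase that is also the lamin B receptor, was at 197, 220.4 and 218 CPM in vehicle and 175, 127 and 171 CPM in IL-25 libraries, all lower, with a change of -0.24 ± 0.16 (adjusted p = 0.326). Dhcr7, the last reductase, was at 31.6 to 36.3 CPM in vehicle, 25.3 to 29.3 in IL-25, 29.9 to 41.9 in IL-33 and 32.4 to 40.5 in libraries with both. Npc1, which exports cholesterol from lysosomes, was at 81.5, 51.5 and 70.7 CPM in vehicle and 53.4, 53.4 and 47.7 CPM in IL-25 libraries, with 1 vehicle value inside the IL-25 range (change -0.24 ± 0.17). Stard4, a carrier of cholesterol between membranes, was at 33.4 to 43.6 and 24 to 35 CPM in these groups, which overlapped.

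Neighbouring genes of the pathway were read from fixed lists chosen with earlier results of these data known. Of 16 other sterol and SREBP genes tested in IL25R+ cells, 3 rose and 0 fell after IL-25 (median -0.04), where 9.07% of all genes were called higher. After both, 3 rose and 0 fell as well, where 8.97% of all genes were called higher. They were Tmem97, an endoplasmic reticulum protein linked to cholesterol handling, Erg28, a scaffold of the sterol demethylases known from yeast, and Cyb5r3, which passes electrons to sterol and fatty acid enzymes. Tmem97 was at 16.2, 20.4 and 18.7 CPM in vehicle and 33.8, 28.7 and 43.3 CPM in IL-25 libraries, without overlap (change 1.14 ± 0.23, adjusted p = 0.00171). In ST2+ cells 3 of 12 rose and 0 fell after IL-33, where 8.52% of all genes were called higher, again Tmem97, Erg28 and Cyb5r3, with log2 fold changes of 1.26, 0.81 and 0.88. Tmem97 was at 28, 29.7, 25.3 and 23 CPM in ST2+ vehicle and 87.5, 38.7, 41.8 and 75.7 CPM in IL-33 libraries, and its effect of IL-33 differed between the populations by 1.32 ± 0.35 (adjusted p = 0.0176).

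Of 13 other fatty acid synthesis genes tested in IL25R+ cells, 1 rose after IL-25 (Tecr, the last reductase of chain elongation, 0.40) and 3 after both, namely Hacd3, Acsl5 and Hsd17b12, at 0.76, 0.55 and 0.53. None fell in either. The counts in this list and in those that follow are small and are to be read against 9.07% higher and 5.9% lower over all genes after IL-25, 8.97% and 6.67% after both, and 8.52% and 8.03% in ST2+ cells after IL-33. In ST2+ cells 2 of 10 rose, Hacd3 (1.42) and Slc25a1, the mitochondrial citrate carrier (1.13). Genes of fatty acid oxidation gave 2 higher and 1 lower of 16 after IL-25, and those that rose were Etfb (0.69) and Acadvl (0.54). In ST2+ cells 0 rose and 2 of 16 fell, Cpt1a, the gate of mitochondrial oxidation (-1.04), and Acaa2 (-0.95). Of the storage and uptake genes, Dgat2, which completes triglyceride synthesis, was at 18.5, 5.58, 11.8 and 9.5 CPM in ST2+ vehicle and 637, 607, 477 and 464 CPM in IL-33 libraries (change 5.62 ± 0.35, adjusted p = 2.16e-05), and 5 of 11 of that list rose and 1 fell. After IL-25 the 1 of 11 that rose was Fabp5, a fatty acid carrier (1.93 ± 0.35, adjusted p = 0.000502). Of the same list in IL25R+ cells, 1 of 11 rose and 0 fell after IL-33 alone, where 0.181% of all genes were called higher. With both, 3 rose and 1 fell. The largest log2 fold change in the list was 3.20 after IL-33 and 4.26 after both. LXR and efflux genes gave 0 higher and 1 lower of 5 after IL-25, which was Apoe (-4.90), and 0 of 3 in ST2+ cells. After IL-25 the median log2 fold changes were 0.26 for other fatty acid synthesis, 0.13 for oxidation, -0.04 for uptake and storage and -0.20 for LXR and efflux genes. In ST2+ cells after IL-33 they were 0.27, 0.11, 0.67 and -0.02 in that order, and 0.20 for the other sterol and SREBP genes. Among vehicle and IL-33 libraries Apoe had the order of the Glycam1 split, at 88.5, 135 and 725 CPM in vehicle and 32.2, 18.1 and 91.5 CPM in IL-33 libraries. With both, whose libraries share the side of vehicle, 0 of 5 LXR and efflux genes rose and 2 fell. The lowest log2 fold change in the list was then -1.75.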

How the data were processed

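RNA was measured by bulk MARS-seq, a barcoded method that counts transcripts at their 3' ends, in 12 libraries of IL25R+ and 8 of ST2+ thymic ILC2. Per the submitters' processing notes the tools were bcl2fastq, cutadapt, STAR 2.5.2b, HTSeq and DESeq2, with build mm10. The authors deposited whole-number counts per gene and library, a signal that is the count after division by a size factor, and regularised log2 values. All results were computed from the deposited counts. Whether these are reads or molecular identifiers, and whether counting used the strand, is not given in the sources used here. All sample columns were mapped, with 0 left over.

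Counts were filtered with filterByExpr (minimum count 10, minimum total 15, proportion 0.7), scaled by TMM and tested in edgeR 4.0.16 (R 4.3.3) by its quasi-likelihood method, with 1 coefficient per group and all libraries of a table. P-values were adjusted by Benjamini-Hochberg over all genes of a comparison and called at 0.05. The SE is the absolute log2 fold change divided by the root of its F value, and intervals cover 95%. CPM were not scaled by TMM. The method was tested on simulated data.

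Alternatives were DESeq2 size factors, no filter, the replicate block, the side of the split (Glycam1 above 10 CPM) as a term, DESeq2 1.42.0, and each library left out. Library totals alone, ST2+ vehicle library 3 and IL-33 library 2 left out, and IL25R+ IL-33 libraries 1 and 2 left out were chosen after seeing the data. Per-library values were given for genes that passed in at least 1 comparison and for control genes, and other genes were named after their values were seen. The members and lists were chosen with earlier results of these data known. Gene positions are from GENCODE M21 and promoters from RefSeq. Companion lists held other sterol and SREBP, other fatty acid synthesis, LXR and efflux, oxidation, and uptake and storage genes, with at most 4 called genes named per comparison. Some genes of these lists are not reported here.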

Additional observations from a re-analysis of the deposited data

Results flagged for a closer look

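In ST2+ cells 5 of 70 groups of 4 libraries had 1 value far from the rest, where chance gives about 1 in 20. Of these, 3 were in IL-33 library 2: Hmgcs1 was at 27.0 CPM there against 74.3 to 78.8 CPM in the other 3 libraries, Npc1 at 8.42 CPM against 22.7 to 24.8 CPM, and Sc5d at 56.4 CPM against 25.1 to 29.5 CPM. That library stood apart from the rest of its group and had the lowest value for 22 of the 35 listed genes. Msmo1 was at 11.7 CPM in vehicle library 4 against 22.3 to 23.6 CPM in the others. Srebf1 had 96.4 CPM in IL-33 library 3, where the others held 117 to 121 CPM.

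The effect of IL-33 differed between the populations for 2 genes. Acss2 differed by -2.69 on the log2 scale (ST2+ minus IL25R+, adjusted p = 0.000971 by edgeR), with each of 4 ST2+ IL-33 libraries below vehicle. Fdps differed by 0.89 (adjusted p = 0.00812), with 3 of 3 IL25R+ IL-33 libraries below vehicle and 3 of 4 ST2+ IL-33 libraries above it.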

How the results depend on the processing

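No called gene changed direction under an alternative. Of the 31 calls DESeq2 size factors kept 31, the replicate block 28, no filter on low counts 27, library totals alone 24 and DESeq2 24. With the side of the split as a term 18 of 30 were kept. These include the 9 higher and 2 lower for both over vehicle, whose groups share a side, so the term cannot shift their fold changes. For the counts of genes called, no filter gave 0 higher for both over IL-25 and 0 lower for both over IL-33, and the replicate block likewise gave 0 and 0. Deviations of same-numbered samples had correlations of -0.126 to 0.129 over 18 pairs in IL25R+ and 0.0195 to 0.251 over 4 pairs in ST2+ cells. Of these pairs 1 and 2 were above 0.1, and whether replicate numbers pair the samples was not tested. With the block, IL-25 gave 8 higher and 1 lower and both cytokines 8 and 2. The split gave 4 higher and 3 lower for IL-25, 1 lower for IL-33, 0 higher for both over IL-25, 2 higher for both over IL-33 and 0 higher for the difference between populations. DESeq2 gave 2 higher for both over IL-25, 0 lower for both over IL-33, 1 higher for IL-33 in ST2+ cells and 2 higher for the difference. Both cytokines over vehicle gave 6 higher with DESeq2, as with library totals alone. Library totals alone also gave 5 lower for IL-25, 2 higher for both over IL-25 and 2 lower for both over IL-33. Without the ST2+ libraries that stood apart, IL-33 gave 4 higher and 2 lower, with 16.9% and 14% of all genes called. The difference gave 3 higher, with 10.4% of all genes called higher. Without IL25R+ IL-33 libraries 1 and 2, library 3 alone remains in that group, so no counts are given for that fit. The cause of these changes was not tested. Leaving out each library in turn gave ranges of genes higher and lower of 4 to 8 and 1 to 1 for IL-25, 0 to 0 and 0 to 0 for IL-33, 1 to 9 and 0 to 2 for both, 0 to 3 and 0 to 0 for both over IL-25, 4 to 10 and 0 to 2 for both over IL-33, 0 to 3 and 1 to 2 for IL-33 in ST2+ cells and 1 to 3 and 1 to 1 for the difference. Groups of 3 or 4 libraries of unstated origin, low counts of Hsd17b7, Cyp51, Lss, Idi1, Insig1 and Fasn, and the wider spread in ST2+ cells limit what could be called, and promoters of 8 genes were not analysed here.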
